A study of Homo sapiens with 4 samples.

Results

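The genes described here code for splicing factors and RNA helicases. They were picked by name, as protein-coding rows of the deposited table whose symbol starts with HNRNP, SRSF, SF3A, SF3B, SNRP, PRPF, U2AF, LSM, PTBP, PCBP, SRRM or TRA2, or with DDX, DHX or RBM and the gene's number (RBMX included). The rule found 81 of the 2897 genes in the table, and no expression value entered this choice by name. How genes were selected for the table itself is not given in the sources used here. By symbol they fall into 19 heterogeneous nuclear ribonucleoproteins with the related PTBP and PCBP proteins (hnRNP proteins), 9 serine/arginine-rich proteins with SRRM2 and TRA2A (SR proteins), 18 proteins of the small nuclear ribonucleoproteins with the U2 factors (snRNP proteins), 4 LSm proteins, 4 PRPF proteins, 11 RBM proteins, 13 DEAD-box helicases and 3 DEAH-box helicases.

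Total RNA was taken from AGS-1 and HGC-27, established human gastric cancer cell lines of wild-type genotype in the labels, and the table holds 1 mRNA library for each line without treatment and 1 with isorhamnetin (ISO), a plant flavonoid. The labels, which write AGS for the first line, give a dose of 50 μM for 24 h, while the study's text gives a lower dose for the same libraries. The untreated cells were grown in the same medium with serum and antibiotics, and no solvent control is named in the labels. The question of the design was which transcripts differ after ISO in each line.

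The 4 libraries held 15235004 (AGS-1 control), 15957590 (AGS-1 ISO), 20199425 (HGC-27 control) and 17072456 fragments (HGC-27 ISO). The splicing genes took 1.79% to 2.09% of them, and each splicing gene had at least 315 fragments in every library, so that the counting standard error (SE) of its log2 ratio lay between 0.014 and 0.108. The study's text speaks of duplicates, and whether a deposited value stands for 1 culture or for several pooled ones is not given in the sources used here. How far separate cultures vary is not part of that error and is unknown here, with 1 library for each condition. The mitochondrial genome took 9.43% of fragments in untreated AGS-1 and 14.3% with ISO, and 9.75% and 12.4% in HGC-27. Of 8 epithelial markers 5 were in the table, at 218 to 598 FPKM in untreated AGS-1 and at 0 to 2.19 FPKM in untreated HGC-27, where vimentin stood at 306 FPKM against 0.70 in untreated AGS-1. KRT19 and LYZ were listed at 0 in both HGC-27 libraries, and the collagen gene COL1A1 stood at 348 FPKM in untreated HGC-27 and at 9.71 in untreated AGS-1. Of 9 gastric markers only MUC1 was listed, with 62.8 FPKM in untreated AGS-1 and 4.26 in untreated HGC-27. Most of the markers that AGS-1 expresses were lower with ISO in that line, with log2 ratios (ISO to control) of -0.91 for KRT18, -0.85 for KRT19, -0.92 for LYZ and -0.56 for MUC1 and a median of -0.57 over the 5 epithelial markers, of which CLDN4 had 0.05. Of all genes, 78.6% were lower with ISO in AGS-1, with a median of -0.29. Scaling to the nuclear genes listed in the table moved that median to 0.13. In HGC-27 the mesenchymal marker TWIST1 had -1.10 and vimentin -0.30, beside a median of -0.11 for all genes. The marker ratios are those of the deposited values. The part of these differences in those of the splicing genes was not tested. In such bulk libraries, fewer cells of a kind and less RNA per cell cannot be told apart.

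Before a transcript leaves the nucleus its introns are cut out by the spliceosome, a machine built from small nuclear RNAs and the Sm, LSm, SF3 and PRPF proteins bound to them. SR proteins and hnRNP proteins bind the transcript itself and steer which sites are used, SR proteins often in favour of an exon and hnRNP proteins often against it. DEAD-box and DEAH-box helicases use ATP to unwind RNA and to move the spliceosome from one step to the next, and many of them also serve in ribosome assembly, translation or RNA decay.

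All 81 listed genes were well detected, and genes left out of the table are not seen here. FPKM are fragments scaled by gene length and library size, so that levels can be compared between genes. The mean over the 4 libraries ran from 14.4 to 170.7 FPKM with a median of 35.1 FPKM, beside 29.6 FPKM for all genes of the table. HNRNPA1, a nuclear RNA-binding protein that shuttles to the cytoplasm, had the highest mean level, with 172 FPKM in untreated AGS-1, 133 in ISO-treated AGS-1, 214 in untreated HGC-27 and 164 in ISO-treated HGC-27. SNRPB, the SmB protein of the ring around most spliceosomal RNAs, came next, with 238, 145, 138 and 104 FPKM in the same order. HNRNPK, a binder of C-rich RNA, followed with 151, 110, 132 and 107 FPKM. In each of these genes the ISO library was the lower one in both lines, as in 56% of all genes. The AGS-1 sign of HNRNPA1 turned under other scalings, which are given below. From here on, a pair of levels for a line gives the untreated and then the ISO-treated library, and a pair of ratios gives AGS-1 and then HGC-27. By position, 12 of the 81 genes lie on chromosome 19 (14.8%, beside 9.35% of all genes in the table) and 9 on chromosome 20 (11.1%, beside 4.25%).

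None of the 81 genes differed 2-fold between ISO and control in either line, on the log2(FPKM + 1) scale used throughout for ratios. Of all genes in the table, 7.46% passed that fold in AGS-1, and for HGC-27 the share was 1.48%. At 1.5-fold, 8 splicing genes were lower with ISO in AGS-1 (24.1% of all genes were) and 1 was higher (2.45% of all genes). In HGC-27 0 were lower at 1.5-fold (5.38% of all genes) and 2 were higher (2.38%). The 8 lower genes were PTBP3, HNRNPU, SNRPA, SNRPB, DDX21, LSM4, HNRNPC and HNRNPH3, the higher gene in AGS-1 was SRRM2, and the 2 higher genes in HGC-27 were SF3A3 and DDX23. These calls depend on the scaling. Under each of the 3 other scalings tried (by median of ratios, by upper quartile and to nuclear genes alone, given in this order here and below), 0 splicing genes were lower at 1.5-fold in AGS-1 (10.7%, 6.66% and 5.73% of all genes), while 2, 7 and 10 were higher (5.21%, 9.35% and 10.9% of all genes), SRRM2 and DDX17 in each case. In HGC-27 0 were lower (4.14%, 2.9% and 3.31%) and 4, 5 and 5 were higher (3.14%, 4.66% and 3.97%), with SF3A3, DDX23, SRSF2 and PRPF4 in each case. With 1 library per condition no test within a line was possible.

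As a group, the splicing genes stood slightly above the other genes in AGS-1. In AGS-1 the median of their log2 ratios was -0.18, beside -0.29 for all genes, and in HGC-27 it was -0.08, beside -0.11. In AGS-1, 23 of the 81 were higher with ISO (28.4%, beside 20.4% of all genes), and in HGC-27 34 were (42.0%, beside 35.4%). In 41 genes the ISO library was lower in both lines (50.6%, beside 56% of all genes) and in 17 higher in both (21.0%, beside 13%), which leaves 23 with opposite directions (28.4%, beside 29.6%). In 11 of these both ratios lay beyond their 95% counting intervals (13.6% of the 81), beside 13% of all genes. Relative to the median gene, 35 were higher in both lines and 19 lower in both, beside 32.4% of all genes each. On that relative scale 2 genes were 1.5-fold higher in AGS-1 (SRRM2 and DDX17; 5.73% of all genes) and 0 were 1.5-fold lower (10.1%), and in HGC-27 5 were higher (SF3A3, DDX23, SRSF2, PRPF4 and DDX3X; 3.97%) and 0 lower (3.18%).

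The direction of a small ratio depends on the scaling. With a median-of-ratios scaling the median of all genes in AGS-1 moved to -0.02, with an upper-quartile scaling to 0.09 and with a scaling to nuclear genes alone to 0.13, and the splicing genes' median moved along to 0.088, 0.23 and 0.27. In HGC-27 the same scalings gave -0.017, 0.068 and 0.026 for the splicing genes. The number of the 81 with the higher value with ISO moved to 47, 60 and 64 in AGS-1 (45.8%, 60.1% and 63.8% of all genes) and to 40, 52 and 48 in HGC-27 (43.1%, 54.3% and 48.7%). The sign of the ratio was the same under all 4 scalings in 40 genes in AGS-1 and in 63 in HGC-27, so directions below are those of the deposited values, and signs that turned are named where a direction with ISO is described. For genes whose levels are given only for the difference between the lines, signs turned in HNRNPUL1 (both lines), SNRPG (AGS-1), DDX49 and RBM38 (both in HGC-27). Scaling to nuclear genes used the sum over the nuclear genes listed in the table. Both the mitochondrial share and the share of fragments in listed genes therefore enter it. Of library fragments, 78.5% fell in listed genes in untreated AGS-1 and 64.4% with ISO, and 61.0% and 60.0% in HGC-27. The part of either share in the single ratios was not tested.

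**Figure D1:**
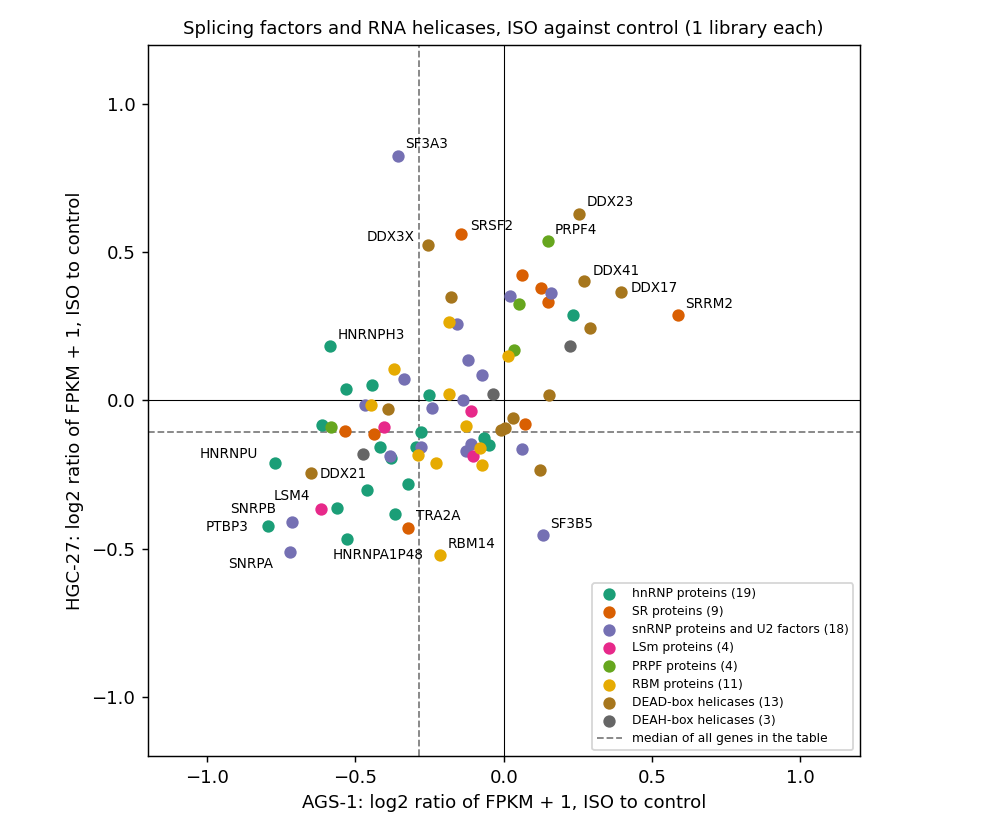
Each point is 1 of the 81 genes, coloured by group, with its log2 ratio of FPKM + 1 (ISO to control) in AGS-1 on the horizontal axis and in HGC-27 on the vertical axis; dashed lines mark the median of all 2897 genes (-0.29 and -0.11). No point reaches 1 or -1 on either axis, SF3A3 stands highest at 0.83 in HGC-27, and PTBP3, HNRNPU, SNRPA and SNRPB lie furthest to the left.

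The hnRNP proteins had the lowest median ratio of the 8 groups in both lines, under each of the 4 scalings. In AGS-1 18 of the 19 had the lower value with ISO (78.6% of all genes did), with a median log2 ratio of -0.42, and in HGC-27 14 of the 19 (64.2% of all genes), with a median of -0.16. Their summed level was 1355 FPKM in untreated AGS-1 and 1027 with ISO, and 1302 and 1154 in HGC-27. Relative to the median gene the group stood at -0.13 (AGS-1) and -0.05 (HGC-27), so part of the listed difference is shared with the table as a whole. Under scaling to nuclear genes the AGS-1 median turned to 0.035, with 11 of 19 higher (63.8% of all genes were). The HGC-27 median stayed below 0 under all 4 scalings. In 7 of the 19 both ISO libraries were below both controls, beside 16.2% of all genes and 15 of all 81 splicing genes.

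PTBP3, a paralog of the polypyrimidine tract-binding protein that represses exons (chr9:112217716-112333664, GRCh38, minus strand), had the largest such difference in AGS-1. It stood at 47.7 FPKM in untreated AGS-1, 27.0 in ISO-treated AGS-1, 21.9 in untreated HGC-27 and 16.1 in ISO-treated HGC-27. Each ISO library was below its own control, but the AGS-1 ISO library was above the HGC-27 control, so the treatments overlapped across lines. The log2 ratio was -0.80 (AGS-1) and -0.42 (HGC-27), with counting SEs of 0.031 and 0.039. PTBP1, the better known paralog, stood at 78.1 and 52.6 FPKM in AGS-1 and at 88.0 and 68.2 FPKM in HGC-27 without and with ISO.

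HNRNPU, a scaffold protein that binds RNA and chromatin (chr1:244840638-244864560, minus strand), stood at 46.4 FPKM in untreated AGS-1, 26.8 in ISO-treated AGS-1, 42.1 in untreated HGC-27 and 36.2 in ISO-treated HGC-27. Both ISO libraries were below both controls. The log2 ratio was -0.77 (AGS-1) and -0.21 (HGC-27). Of its exonic bases, 15.6% are shared with COX20 on the other strand, and whether counting used the strand is not given in the sources used here.

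HNRNPC, which coats long stretches of nascent RNA, had the larger difference in AGS-1, with 87.4 FPKM in the control and 56.9 with ISO, beside 98.4 and 92.9 in HGC-27. Its log2 ratio was -0.61 (AGS-1) and -0.08 (HGC-27), where the sign turned under another scaling. HNRNPH3, a G-rich RNA binder, went in opposite directions, with 27.5 FPKM in untreated AGS-1, 18.0 with ISO, 18.5 in untreated HGC-27 and 21.2 with ISO (log2 ratios -0.59 and 0.18). HNRNPH2, its relative, was the 1 gene of the group that was higher with ISO in both lines, with ratios of 0.23 and 0.29.

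Among the abundant hnRNP genes, HNRNPK had log2 ratios of -0.46 and -0.30 in AGS-1 and HGC-27. HNRNPAB was at 104 and 76.1 FPKM in AGS-1 and at 147 and 152 FPKM in HGC-27 without and with ISO. HNRNPF was at 119 and 90.9 FPKM in AGS-1 and at 99.1 and 86.6 in HGC-27, and HNRNPA2B1 at 95.2 and 79.8 in AGS-1 and at 84.7 and 85.8 in HGC-27. So HNRNPAB and HNRNPA2B1 were lower with ISO in AGS-1 but almost level in HGC-27, and the AGS-1 sign of HNRNPAB, HNRNPF and HNRNPA2B1 turned under other scalings. HNRNPA1 had log2 ratios of -0.37 and -0.38, of which the AGS-1 sign also turned.

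HNRNPA1P48 carries the name of a pseudogene of HNRNPA1 although the table lists it as protein-coding. It stood at 27.0 and 18.4 FPKM in AGS-1 and at 22.8 and 16.2 FPKM in HGC-27, with log2 ratios of -0.53 and -0.47. Of the stretches of 50 bases in its transcript, 48.6% also occur in HNRNPA1 transcripts, and GENCODE 29 names 74 pseudogenes of HNRNPA1, so its value and that of HNRNPA1 are uncertain where reads could be split between copies. Another such pseudogene outside the rule, HNRNPA1P7, was at 40.8 and 31.3 FPKM in AGS-1 and at 55.6 and 31.3 FPKM in HGC-27.

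The SR proteins lay on the other side, with group medians above 0 in both lines under all 4 scalings. Of 9 genes, 5 had the higher value with ISO in AGS-1 (20.4% of all genes) and 5 in HGC-27 (35.4%), and 6 to 8 and 5 to 8 under the other scalings (45.8% to 63.8% and 43.1% to 54.3% of all genes), with median log2 ratios of 0.06 and 0.29. Relative to the median gene these medians were 0.35 and 0.39. Their summed level was 377 FPKM in untreated AGS-1 and 390 with ISO, and 327 and 364 FPKM in HGC-27. SRRM2 alone gave 61.8 and 93.4 FPKM of the AGS-1 sums, a larger difference than that of the sums. It gave 46.8 and 57.3 FPKM of the HGC-27 sums.

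SRRM2, a very large scaffold protein of nuclear speckles, the stores of splicing factors in the nucleus (chr16:2752626-2772538, plus strand), had the highest AGS-1 log2 ratio of the 81 genes. It stood at 61.8 FPKM in untreated AGS-1, 93.4 in ISO-treated AGS-1, 46.8 in untreated HGC-27 and 57.3 in ISO-treated HGC-27. The ISO library was the higher one in both lines, and the treatments overlapped across lines. The log2 ratio was 0.59 (AGS-1) and 0.29 (HGC-27), and under upper-quartile scaling it reached 1.00 in AGS-1, past the 2-fold mark.

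SRSF2, an exonic enhancer binder that is often mutated in myeloid cancers (chr17:76734115-76737333, minus strand), stood at 44.7 FPKM in untreated AGS-1, 40.3 in ISO-treated AGS-1, 36.7 in untreated HGC-27 and 54.7 in ISO-treated HGC-27. HGC-27 with ISO was thus the highest library, and in AGS-1 the ISO value was slightly lower, a sign that turned under other scalings. The log2 ratios were -0.14 and 0.56, and 36.7% of the exonic bases of SRSF2 are shared with MFSD11 on the other strand or with a microRNA. SRSF5, a shuttling SR protein, was at 54.2 and 56.7 FPKM in AGS-1 and at 29.6 and 40.0 in HGC-27 (0.06 and 0.42), and SRSF7, which also takes part in mRNA export, at 41.8 and 30.6 in AGS-1 and at 63.0 and 58.2 in HGC-27. The ratio of SRSF5 was the larger in HGC-27 in the deposited values but 0.52 and 0.53 under scaling to nuclear genes, and both signs of SRSF7 turned under other scalings. In 3 of the 9 the ISO library was lower in both lines (56% of all genes), in SRSF7, TRA2A and SRSF9. TRA2A, which activates exons through GAA-rich sites, was at 27.2 and 21.6 FPKM in AGS-1 and at 32.1 and 23.6 FPKM in HGC-27 (-0.32 and -0.43). SRSF9 had ratios of -0.53 and -0.10, and only its HGC-27 sign turned under another scaling. The AGS-1 sign of TRA2A turned under other scalings.

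**Figure D2:**
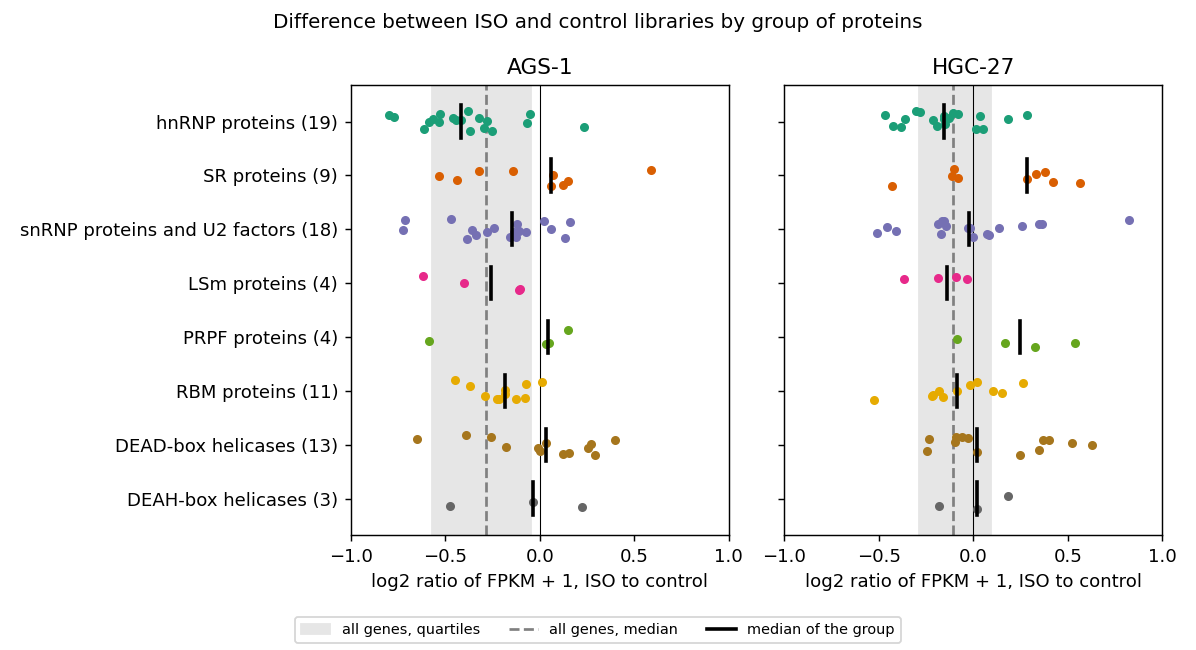
Log2 ratios of FPKM + 1 (ISO to control, horizontal axis) for the genes of each group, 1 point per gene, in AGS-1 (left) and HGC-27 (right); black bars are group medians, the dashed line and grey band are the median and quartiles of all 2897 genes. The hnRNP median lies at -0.42 in AGS-1 (0.035 under scaling to nuclear genes), left of the table's median, while the SR median lies at 0.06 (AGS-1) and 0.29 (HGC-27).

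The 18 snRNP proteins and U2 factors were mixed. With ISO 14 were lower in AGS-1 (78.6% of all genes) and 10 in HGC-27 (64.2%), with median log2 ratios of -0.15 and -0.02, and 8 went in opposite directions in the 2 lines (29.6% of all genes). Both medians turned above 0 under the other scalings, to 0.12 to 0.30 in AGS-1 and to 0.041 to 0.124 in HGC-27. They include proteins of the U1 particle, which marks the start of an intron, Sm proteins, which form the ring on the spliceosomal RNAs, and SF3 proteins, which hold the U2 particle on the branch point. SNRPA and SNRPB had the lowest AGS-1 log2 ratios of the group and SF3A3 the highest HGC-27 ratio.

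SNRPA, the A protein of the U1 particle (chr19:40750637-40765389, plus strand), stood at 65.4 FPKM in untreated AGS-1, 39.3 in ISO-treated AGS-1, 53.1 in untreated HGC-27 and 36.9 in ISO-treated HGC-27. Both ISO libraries were below both controls. Its log2 ratios were -0.72 (AGS-1) and -0.51 (HGC-27). SNRPB (chr20:2461634-2470853, minus strand), whose levels are given above, had ratios of -0.72 and -0.41. Each ISO library of SNRPB was below its own control, and the AGS-1 ISO library was above the HGC-27 control. Of its exonic bases 20.0% are shared with AL049650.1 on the same strand. SNRPC, the other U1 protein in the table, had ratios of -0.13 and -0.17, and SNRPD2, another Sm protein, had -0.11 and -0.15, at 105 and 97.7 FPKM in AGS-1 and 73.4 and 66.3 in HGC-27. The AGS-1 sign of SNRPC and both signs of SNRPD2 turned under other scalings.

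SF3A3, a subunit of SF3a (chr1:37956975-37990075, minus strand), had the largest gap between the lines in its ratios in the deposited values (under scaling to nuclear genes that of SF3B5 was larger). It stood at 26.0 FPKM in untreated AGS-1, 20.1 in ISO-treated AGS-1, 26.1 in untreated HGC-27 and 47.0 in ISO-treated HGC-27. The controls were level, the HGC-27 ISO library was the highest and the AGS-1 ISO library the lowest. Its log2 ratios were -0.36 and 0.83, with counting SEs of 0.055 and 0.041, and the AGS-1 sign turned under another scaling. The other SF3a subunits had ratios of 0.16 and 0.36 (SF3A1) and of -0.39 and -0.19 (SF3A2). SF3B1, the subunit that contacts the branch point, was at 44.5 and 45.2 FPKM in AGS-1 and at 25.5 and 32.8 in HGC-27, and SF3B4 at 70.3 and 57.7 in AGS-1 and at 75.3 and 67.4 in HGC-27. The AGS-1 signs of SF3A2 and SF3B4 turned under other scalings. SF3B5, a small SF3b subunit, had the lowest HGC-27 ratio of the SF3 genes, with 48.3 and 53.0 FPKM in AGS-1 and 68.8 and 49.9 FPKM in HGC-27 (0.13 and -0.46, the first within its 95% counting interval). So in the deposited values the subunits of 1 complex did not share a direction. U2AF2, which binds the polypyrimidine tract, had ratios of 0.06 and -0.17.

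The 4 LSm proteins were lower with ISO in both lines in the deposited values, as were 56% of all genes, with medians of -0.26 (AGS-1) and -0.14 (HGC-27). LSM4, part of the LSm ring on U6 RNA and of the ring that starts mRNA decay (chr19:18306236-18323112, minus strand), stood at 48.8 FPKM in untreated AGS-1, 31.5 with ISO, 96.7 in untreated HGC-27 and 74.9 with ISO. Its log2 ratios were -0.62 and -0.37, and both HGC-27 libraries were above both AGS-1 libraries. LSM14B, a relative of a protein of cytoplasmic mRNA granules, had ratios of -0.10 and -0.19. Signs of LSM7 and LSM10 turned under other scalings in both lines, and that of LSM14B in AGS-1, and the group median turned above 0 in AGS-1 under all 3 other scalings (0.0071, 0.14 and 0.18) and in HGC-27 under upper-quartile scaling (0.0065).

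Of the 4 PRPF proteins 3 were higher with ISO in both lines (13% of all genes), with group medians of 0.04 (AGS-1) and 0.25 (HGC-27). PRPF4, of the U4/U6 particle, was at 9.91 and 11.1 FPKM in AGS-1 and at 18.8 and 27.7 FPKM in HGC-27 (0.15 and 0.54). PRPF6, a bridge in the tri-snRNP, had ratios of 0.03 and 0.17, and PRPF38B of 0.05 and 0.32. The exception was PRPF19, a ubiquitin ligase of the spliceosome, with 71.6 and 47.5 FPKM in AGS-1 and 76.8 and 72.2 in HGC-27 (-0.58 and -0.09, the latter turning under another scaling).

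Of the 11 RBM proteins 10 were lower with ISO in AGS-1 (78.6% of all genes) and 7 in HGC-27 (64.2%), with medians of -0.18 and -0.09, and 0 of them reached 1.5-fold. Under scaling to nuclear genes these medians turned to 0.26 and 0.018. There 10 of the 11 were higher in AGS-1 (63.8% of all genes) and 6 in HGC-27 (48.7%). RBM14, a paraspeckle protein, was at 17.2 and 14.7 FPKM in AGS-1 and at 21.0 and 14.3 in HGC-27, and its HGC-27 ratio of -0.52 was the lowest of the 81 genes. RBM42 was at 98.5 and 80.4 FPKM in AGS-1 and at 85.7 and 75.4 in HGC-27. RBM39, a U2AF-related splicing factor, went in opposite directions, with 46.3 and 40.6 FPKM in AGS-1 and 23.0 and 27.8 in HGC-27. RBMX, an X-linked relative of the hnRNP proteins, had ratios of -0.08 and -0.16, and RBM10, which favours exon skipping, of -0.07 and -0.22. In AGS-1 the signs of RBM14, RBM42, RBM39, RBMX and RBM10 turned under other scalings.

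The DEAD-box helicases held genes with the higher value and genes with the lower value with ISO in like numbers in the deposited values, and mostly higher ones under the other scalings. In AGS-1 8 of 13 were higher (20.4% of all genes) and in HGC-27 7 of 13 (35.4%), against 11 to 12 (45.8% to 63.8% of all genes) and 9 to 11 (43.1% to 54.3%) under the other scalings. The group had medians of 0.03 and 0.02 that stayed above 0 under the other scalings, and 11 of 13 lay above the median gene in each line, where 50% of all genes lie. DDX21, which works in ribosome biogenesis (chr10:68956170-68985068, plus strand), had the lowest log2 ratio of the group in both lines. It stood at 74.7 FPKM in untreated AGS-1, 47.2 in ISO-treated AGS-1, 78.7 in untreated HGC-27 and 66.3 in ISO-treated HGC-27. Both ISO libraries were below both controls, with log2 ratios of -0.65 and -0.24.

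DDX23, the helicase that helps to release U1 from the start of the intron (chr12:48829756-48852842, minus strand), was at 17.4 FPKM in untreated AGS-1, 21.0 in ISO-treated AGS-1, 19.5 in untreated HGC-27 and 30.7 in ISO-treated HGC-27. Both ISO libraries were above both controls, and the ratios were 0.25 and 0.63. DDX17, a paralog of DDX5 and cofactor of splicing and transcription (chr22:38483438-38507660, minus strand), was at 38.7 and 51.2 FPKM in AGS-1 and at 47.0 and 60.9 FPKM in HGC-27. Its ISO libraries were likewise above both controls, with ratios of 0.40 and 0.37. In 4 of the 81 genes both ISO libraries were above both controls, beside 3.87% of all genes.

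DDX5 itself, at 109 and 95.8 FPKM in AGS-1 and 65.0 and 83.0 in HGC-27, had ratios of -0.18 and 0.35, so the paralogs differed in direction in AGS-1, where the sign of DDX5 turned under other scalings. DDX41, a helicase linked to inherited myeloid disease, was at 12.9 and 15.8 FPKM in AGS-1 and at 27.2 and 36.3 in HGC-27 (0.27 and 0.40). DDX39A, an mRNA export helicase, was at 20.2 and 24.9 in AGS-1 and at 51.7 and 61.5 in HGC-27 (0.29 and 0.25). DDX3X, an X-linked translation helicase, was at 39.2 and 32.7 FPKM in AGS-1 and at 7.72 and 11.5 FPKM in HGC-27 (-0.26 and 0.52). The signs of DDX17, DDX23, DDX39A and DDX41 held under all 4 scalings in both lines, and that of DDX3X turned in AGS-1. Of the 3 DEAH-box helicases, DHX15, which takes the spent spliceosome apart, was at 36.8 and 26.2 in AGS-1 and at 17.3 and 15.1 in HGC-27, DHX9 had ratios of -0.04 (turning under another scaling) and 0.02, and DHX30 of 0.22 and 0.18.

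**Figure D3:**
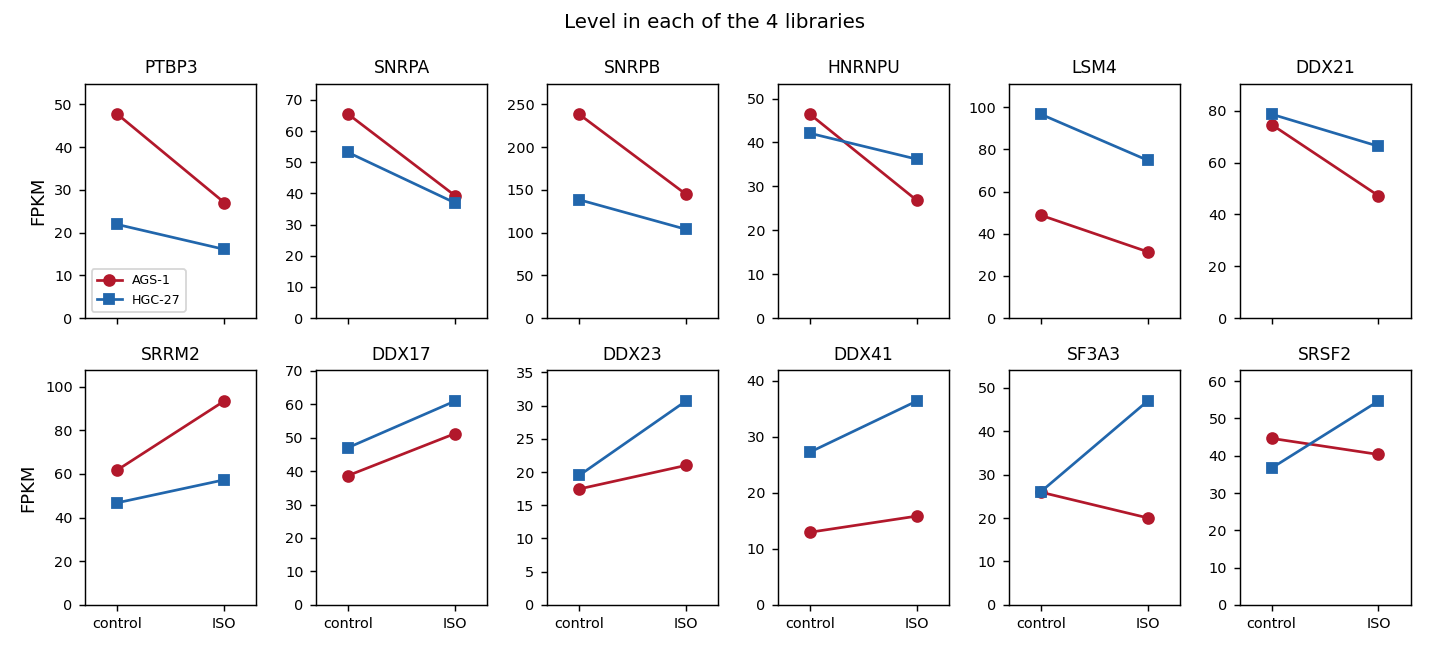
FPKM (vertical axis, from 0, own scale per gene) in the control and ISO library of AGS-1 (red circles) and HGC-27 (blue squares) for 12 of the genes, 1 library per point. PTBP3, SNRPA, SNRPB, HNRNPU, LSM4 and DDX21 are lower with ISO in both lines, SRRM2, DDX17, DDX23 and DDX41 higher in both, and SF3A3 and SRSF2 differ in direction.

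The only comparison with more than 1 library per treatment was a joint fit of both lines (limma on log2(FPKM + 1), cell line and treatment in the model, 1 residual degree of freedom). For ISO, 0 of the 81 genes passed an adjusted p of 0.05 in this limma fit, beside 27 of the 2883 genes tested (0.937%). At an unadjusted p under 0.05 there were 7 splicing genes, beside 20% of all genes. Of these 6 were lower (17.8% of all genes) and 1 was higher (2.22%). That split was tied to the deposited scaling, since under the 3 other scalings 3, 1 and 0 were lower (10.7%, 5.58% and 5.55% of all genes) and 12, 17 and 17 were higher (7.01%, 11.8% and 10.7%). The lower genes in the deposited values were PTBP3, SNRPA, SNRPB, HNRNPU, LSM4 and HNRNPA1P48, and the higher gene was DDX23. PTBP3 had the smallest limma adjusted p of the 81, 0.13, with a shared log2 difference of -0.61 (SE 0.194) and a lower value with ISO in both lines. SNRPA followed with -0.62 (SE 0.206, limma adjusted p 0.143), and DDX23 had 0.44 (SE 0.192, limma adjusted p 0.228). A p above the threshold does not show that these genes are level.

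Across the 81 genes the ratios in the 2 lines had a Pearson correlation of 0.52 and a Spearman correlation of 0.51, beside 0.36 and 0.38 for the 2883 genes in the limma fit. These are descriptions across genes, which share libraries and are not independent replicates.

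The same limma fit also compared the lines. In it 33 of the 81 genes had an adjusted p under 0.05 for the cell line, beside 56.9% of all genes, 17 of them higher in AGS-1 (32.2% of all genes) and 16 higher in HGC-27 (24.7%). With a 2-fold difference as well there were 10, beside 31.5% of all genes. Of the 10, 3 were higher in AGS-1 (19.5% of all genes) and 7 higher in HGC-27 (12%). These counts are those of the deposited values, and the balance between the lines moved with the scaling. At an unadjusted limma p under 0.05, 20 of the 81 were higher in AGS-1 (33.9% of all genes) and 17 lower there (26.7%). Under the 3 other scalings 19, 13 and 11 were higher in that line (33.3%, 29.1% and 28.1% of all genes). The lower ones numbered 28, 34 and 35 (33.3%, 38.8% and 39.3%). In 28 genes both AGS-1 libraries were above both HGC-27 libraries (39.4% of all genes) and in 29 the converse held (34.6%). The 2 libraries of a line differ in treatment and are 1 line each, so this contrast is between these cultures.

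DDX3X had the largest difference towards AGS-1. Its mean log2 level was 1.81 higher there (SE 0.217), and both AGS-1 libraries were above both HGC-27 libraries. HNRNPUL1, a relative of HNRNPU that takes part in the DNA damage response, was at 96.7 and 79.5 FPKM in AGS-1 and at 32.7 and 30.2 in HGC-27, a difference of 1.45 (SE 0.209). RBM38, an mRNA stability factor and p53 target, was at 37.6 and 27.3 in AGS-1 and at 12.6 and 12.5 in HGC-27, a difference of 1.29 (SE 0.195). Next in this direction, under 2-fold, were DHX15 and PTBP3 (0.90 each), RBM39 (0.75), RBM25 (0.71) and SRSF5 (0.67).

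DDX49, a nucleolar helicase, had the largest difference towards HGC-27, with 12.3 and 12.6 FPKM in AGS-1 and 42.1 and 40.3 in HGC-27, a log2 difference (AGS-1 minus HGC-27) of -1.65 (SE 0.185). Its levels with and without ISO were nearly the same within each line. DDX39A had -1.29 (SE 0.195), SNRPG, an Sm protein, -1.22 (SE 0.198), DDX41 -1.08 (SE 0.186) and PRPF4 -1.05 (SE 0.201). SNRPG was at 20.6 and 18.4 FPKM in AGS-1 and at 42.7 and 51.2 in HGC-27, and GENCODE 29 names 20 pseudogenes of it. LSM7 was at 24.0 and 22.2 FPKM in AGS-1 and at 51.5 and 50.2 in HGC-27 (-1.11, SE 0.194), LSM4 had -1.10 (SE 0.213), and LSM10, of the U7 particle that trims histone mRNA, had -0.91. The 3 LSm ring proteins were thus all higher in HGC-27, while LSM14B was higher in AGS-1 (0.48, limma adjusted p 0.0463). Of the SR proteins 5 of 9 had an adjusted p under 0.05 in the limma fit with the higher level in AGS-1 (32.2% of all genes) and 2 with the higher level in HGC-27 (24.7%). These calls, like that of LSM14B, are those of the deposited values.

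**Figure D4:**
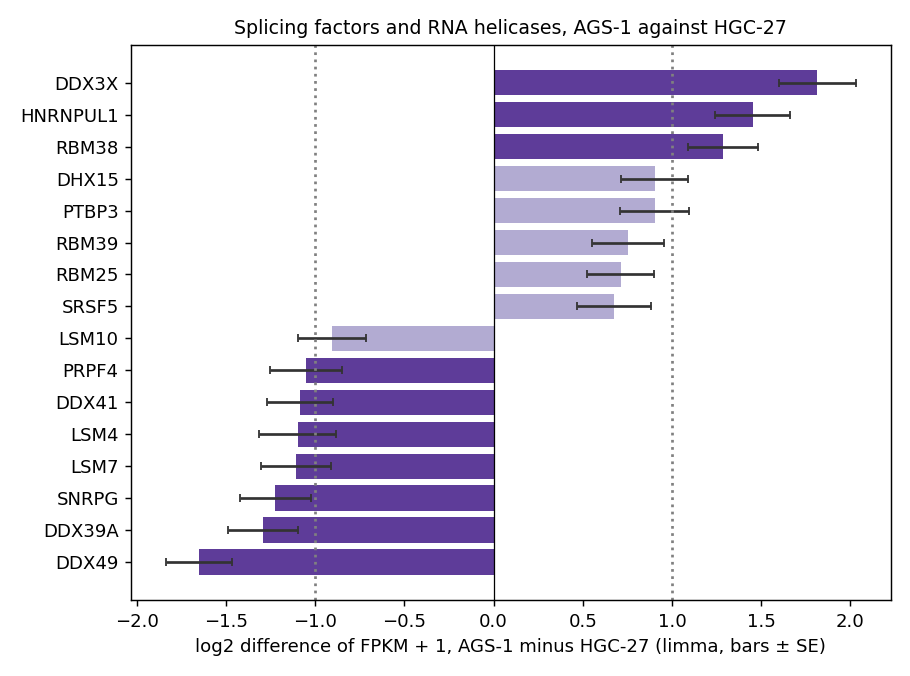
Log2 difference of FPKM + 1 between the lines (AGS-1 minus HGC-27, horizontal axis) for the 8 largest differences in each direction, with bars for the SE of the limma fit; dark bars pass an adjusted p of 0.05 and 2-fold (dotted lines at -1 and 1). DDX3X reaches 1.81 and DDX49 -1.65.

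Upstream sequence was read to see what the genes share that their names do not show. RefSeq promoters (GRCh38.p14, first listed start per gene, 250 bases before it) were matched for 74 of the 81 genes. The motifs searched, on both strands, were CCGGAAGT (or ACTTCCGG), the letters bound by ETS factors, CCAAT (or ATTGG), bound by NF-Y, GGGCGG (or CCGCCC), the GC box, CACGTG, the E-box, and TATAAA (or TTTATA), the TATA box. The ETS letters were found in 19 of the 74 windows (25.7%), beside 8.78% of 2243 protein-coding genes of the table and 3.64% of 27305 genes in all. CCAAT stood in 48.6%, beside 38.7% and 33.0%, the GC box in 59.5%, beside 73.0% and 42.3%, and CACGTG in 12.2%, beside 10.2% and 6.49%. TATAAA stood in 9.46%, beside 5.93% and 11.1%. A match of letters is a description and not a site of binding.

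By group, the ETS letters were found in 10 of the 17 snRNP proteins and U2 factors with a promoter, among them 6 of 8 SF3 genes, and in 1 of 17 hnRNP proteins. The letters with 8 bases on either side are shown here for 9 of those 10 genes, since this group holds most of them; the match in SF3A2 reaches too near the edge of its window. Each line reads 5′ to 3′ on the strand given, with the ETS letters in capitals. The windows end at the RefSeq start, and since the table's gene spans begin further upstream for some genes, 4 of these 9 stretches (SF3B2, SNRPB, SNRPE and U2AF2) overlap the span that the table gives for the gene.
SF3A1 (chr22:30356928-30356951, minus strand): ggacggtcCCGGAAGTgcgccagt
SF3A3 (chr1:37990076-37990099, plus strand): cgcgagtgCCGGAAGTgccccggg
SF3B2 (chr11:66052303-66052326, plus strand): cggcgccaCCGGAAGTtccggcaa
SF3B4 (chr1:149927814-149927837, minus strand): tcttcgccCCGGAAGTggaagtcg
SF3B6 (chr2:24076470-24076493, minus strand): tacagagcCCGGAAGTgtcttgga
SNRPA1 (chr15:101295347-101295370, plus strand): cgttcttgCCGGAAGTcgtggcgc
SNRPB (chr20:2470815-2470838, minus strand): gagctggaCCGGAAGTaggtttct
SNRPE (chr1:203861598-203861621, plus strand): tctttattCCGGAAGTtgctctca
U2AF2 (chr19:55654997-55655020, plus strand): ggcggcggCCGGAAGTagccgaag

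Genes with the ETS letters had lower and higher values with ISO, and their medians were close to those of genes without. The median log2 ratio was -0.18 (AGS-1) and -0.02 (HGC-27) for the 19 genes with the letters, and -0.16 and -0.09 for the 55 without. In AGS-1 they ran from -0.72 (SNRPB) to 0.22 (DHX30), and in HGC-27 from -0.41 (SNRPB) to 0.83 (SF3A3), the highest ratio of all 81 genes in that line.

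The upstream sequences of 4 genes are shown, HNRNPU and DDX21 as genes that were lower with ISO in both lines DDX3X as a gene with opposite directions, and SF3B5 as the SF3 gene with the lowest HGC-27 ratio. They run 5′ to 3′ on the strand of the gene (GRCh38.p14, RefSeq), with the motifs listed above in capitals, and bases that lie inside the gene in the table or in GENCODE 29 were left out.
HNRNPU (chr1:244864561-244864793, minus strand): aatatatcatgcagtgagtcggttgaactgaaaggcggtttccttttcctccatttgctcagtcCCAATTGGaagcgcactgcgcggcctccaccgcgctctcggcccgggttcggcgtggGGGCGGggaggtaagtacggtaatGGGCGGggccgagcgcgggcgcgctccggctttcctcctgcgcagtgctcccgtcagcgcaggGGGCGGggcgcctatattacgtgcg
DDX21 (chr10:68955920-68956127, plus strand): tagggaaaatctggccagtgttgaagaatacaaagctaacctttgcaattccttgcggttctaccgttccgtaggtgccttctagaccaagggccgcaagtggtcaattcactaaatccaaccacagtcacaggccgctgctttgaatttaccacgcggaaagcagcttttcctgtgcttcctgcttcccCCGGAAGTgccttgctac
DDX3X (chrX:41333058-41333283, plus strand): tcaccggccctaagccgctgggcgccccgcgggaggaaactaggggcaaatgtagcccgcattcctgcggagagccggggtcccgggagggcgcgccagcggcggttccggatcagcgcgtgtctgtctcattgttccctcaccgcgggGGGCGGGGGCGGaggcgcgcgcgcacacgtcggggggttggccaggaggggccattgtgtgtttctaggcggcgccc
SF3B5 (chr6:144095574-144095823, minus strand): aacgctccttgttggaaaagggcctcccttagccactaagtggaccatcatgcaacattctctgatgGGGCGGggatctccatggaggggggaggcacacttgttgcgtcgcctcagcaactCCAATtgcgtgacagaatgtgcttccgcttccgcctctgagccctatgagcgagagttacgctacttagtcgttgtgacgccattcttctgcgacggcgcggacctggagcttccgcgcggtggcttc

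HNRNPU shows the CCAAT letters on both strands in 1 overlapping pair and 3 GC boxes, DDX21 the ETS letters once, DDX3X 2 GC boxes side by side, and SF3B5 1 GC box and 1 CCAAT.

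Other genes of RNA processing were counted from lists written by hand, with the medians of all genes at -0.29 (AGS-1) and -0.11 (HGC-27). Of 78 other spliceosome components 30 were in the table, with medians of -0.14 (AGS-1) and -0.02 (HGC-27), and 2 in AGS-1 and 1 in HGC-27 were lower at 1.5-fold, where 24.1% and 5.38% of all genes were. Of 54 other splicing regulators 25 were in the table, with medians of -0.20 and -0.05, and 6 in AGS-1 and 1 in HGC-27 were lower at 1.5-fold, shares close to those of all genes. The 17 listed genes of exon junction and mRNA export, of 36, had medians of -0.23 and -0.09, and the 6 of 21 for cutting and tailing the 3′ end had -0.14 and 0.08. The 8 of 26 helicases outside the rule had -0.27 and 0.05, and of 17 kinases, phosphatases and carriers that act on SR proteins only PPP1CA, PPP1CB and PPP1CC, catalytic subunits of a phosphatase, and TNPO3, a nuclear import carrier, were in the table, with medians of -0.39 and -0.20 and all 4 lower in both lines (56% of all genes). No gene of these lists differed 2-fold with ISO in either line, and 0 passed an adjusted p of 0.05 for ISO in the limma fit. These medians and directions are those of the deposited values, and signs under the other scalings are not given for these lists.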

How the data were processed

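The authors deposited 1 table of 2897 genes with 1 value for each of 4 samples, taken as FPKM (fragments scaled by gene length and library size), with gene length, type and GRCh38 coordinates. The submitters' processing notes name CASAVA 1.8 and HISAT2; the counting tool, the annotation and how genes were selected for the table are not given in the sources used here. Within a library, 100% of the products of FPKM and gene length were whole multiples of a common unit (tolerance 0.01), which gave back fragments per gene and library totals, used for depth and counting error only.

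Ratios are log2 of FPKM + 1, ISO to control, called at 2-fold and also counted at 1.5-fold. The pseudocount understates differences of low genes. The shared difference and the cell line difference were fitted with limma 3.58.1 in R 4.3.3 (eBayes with trend) over all 2883 genes whose mean reached 1 FPKM, with Benjamini-Hochberg adjustment over all of them and a threshold of 0.05. With 1 residual degree of freedom, the p-values rest on how far the ISO ratios of the 2 lines differ, moderated across genes by eBayes. They do not measure variation between cultures of a line. The fit was tested on simulated data with the same effect in both lines, which does not cover genes whose ratios differ between the lines. The labels name 1 sample per condition, and the duplicates that the study's text mentions are not told apart in the table.

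Genes named are the 10 with the highest mean FPKM, those past 2-fold, the 5 largest higher and 5 largest lower values with ISO in each line, those passing limma for ISO and the 8 largest cell line differences each way (38 genes), with up to 4 examples per group by mean FPKM. SNRPC, SF3B1, U2AF2, SF3A1, SF3A2, HNRNPH2, HNRNPH3, PTBP1, SF3B2, SF3B3, SF3B6, SNRPA1, SNRPE, DDX56, RBM3, SRSF3, SRSF9 and HNRNPA1P7 fall outside this rule and were picked with their values in view. Genes and lists were chosen with earlier results of these data known. All 81 identifiers were found at the same locus in GENCODE 29. Exons of 37 overlap another gene, in 0 of them over more than 50% of bases. Python 3.11.15 with pandas 2.3.3 was used for the rest. Alternatives were other pseudocounts (0.1 and 5), 3 scalings, filters on low values, no trend and no block for the cell line.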

Additional observations from a re-analysis of the deposited data

Results flagged for a closer look

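In 11 of the 81 genes (13.6%, beside 13% of all genes) the ratio of ISO to control had opposite signs in the lines, each beyond its 95% counting interval, and the difference between the lines was not tested, since each condition has 1 library. The HGC-27 log2 ratio exceeded that of AGS-1 by 1.18 in SF3A3, by 0.78 in DDX3X, by 0.77 in HNRNPH3, by 0.71 in SRSF2, by 0.53 in DDX5, by 0.48 in RBM3, by 0.45 in RBM39, by 0.41 in SF3B3 and by 0.16 in SF3B2. In DDX56 and SRSF3 it was the lower one, with differences (HGC-27 minus AGS-1) of -0.36 and -0.15. The signs held under all 4 scalings in both lines in HNRNPH3 and DDX56. In SRSF3 the HGC-27 sign turned under at least 1 other scaling, and in the other 8 genes the AGS-1 sign did.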

How the results depend on the processing

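The limma fit paired ISO with control within each cell line, the only block that the labels allow, since they give no replicate numbers. Without that block 0 splicing genes passed the adjusted p for ISO, and 0 had an unadjusted p under 0.05. Under all other settings 0 also passed, with 6 to 8 at an unadjusted p under 0.05 in the deposited scaling (5 to 7 of them lower) and 15, 18 and 17 under the other scalings (12, 17 and 17 of them higher), and a smallest limma adjusted p between 0.0697 and 0.226.

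The number past 2-fold in AGS-1 was 1 (SRRM2) under upper-quartile scaling and 1 under scaling to nuclear genes, and 0 otherwise; it was 0 in HGC-27 throughout. The median log2 ratio in AGS-1 was 0.088 with median-of-ratios scaling, 0.23 with upper-quartile scaling and 0.27 with scaling to nuclear genes, and in HGC-27 0.068 and 0.026 with the latter 2. For the cell lines 7 to 12 genes passed, 7 with a pseudocount of 5. The balance between the lines at an unadjusted limma p moved with the scaling, as given above. Over the 38 named genes, the ratio moved by more than its counting interval in 114 of 114 cases in AGS-1 and 83 of 114 in HGC-27 under the 3 other scalings, and in 2 of 76 and 4 of 76 under the other pseudocounts, with 0 changes of sign among ratios past 1.5-fold. The 8 genes lower at 1.5-fold in AGS-1 were 0 under each of the 3 other scalings, while those higher went from 1 to 2, 7 and 10. A test of recovered fragments with a count model was not run, because the deposited values are FPKM. The values within a line rest on 1 library each, and no setting shows the variation between cultures.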
